A study of Mus musculus with 19 samples.

Results

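The response of the mouse liver to loss of Hfe was compared with its response to an iron-loaded diet. The quantity described is a difference of effects on the log2 scale, the Hfe effect (Hfeko minus wt) minus the iron diet effect (iron diet minus control diet). A positive value therefore means that the Hfe effect lay above the diet effect, and says nothing of the order of the levels. All 10 liver arrays of the 19 arrays in the series entered, and 16288 probes for 9291 named genes were kept because they were detected (detection p under 0.05) on 2 or more of the 10 arrays. The Hfe experiment held 3 Hfeko mice, homozygous for a disrupted Hfe gene in every cell, and 2 wt mice, all on a standard diet. The diet experiment held 3 mice given 2% carbonyl iron for 6 weeks (iron diet) and 2 mice kept on a standard diet (control diet), all with intact Hfe. All 10 were C57BL/6 males, with 1 mouse per array. The labels give ages of 10 to 12 weeks for Hfeko, 13 to 14 weeks for wt and 16 to 18 weeks for both diet groups, whereas the study's methods give about 10 weeks for the Hfe experiment. The controls of the 2 experiments were thus different mice, and age, cohort and standard feed cannot be told apart between them. By the labels every Hfeko mouse was also younger than every wt mouse, so age and genotype cannot be told apart within the Hfe experiment. The iron content of the livers was not analysed here, and the comparison takes no account of it.

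Hfe is a membrane protein of the hepatocyte that takes part in sensing iron. It acts upstream of hepcidin, the liver hormone that closes the iron exporter ferroportin and so limits the uptake of iron from the gut. When body iron is high and Hfe is intact, bone morphogenetic proteins (BMP) signal through SMAD proteins to raise transcription of the hepcidin gene Hamp and of other BMP targets such as Id1. The mouse carries a close copy, Hamp2. Interleukin-6 raises hepcidin by a separate route, through JAK kinases and STAT3.

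A window of the Socs3 promoter is shown because this feedback inhibitor of the interleukin-6 route is a known STAT3 target and was called in these data. Capitals mark TTCNNNGAA, the STAT site, searched on both strands in the 250 bases before each annotated start. The 30 bases are from RefSeq (GRCm38.p6), on the minus strand, at chr11:117969501-117969530.
Socs3: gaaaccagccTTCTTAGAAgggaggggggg
Of 32851 promoter windows, 7.02% held TTCNNNGAA. A match is only a match of letters.

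The effects differed for 146 probes, 0.896% of those tested (limma, Benjamini-Hochberg adjusted p under 0.05, here termed called). These were 71 probes (0.436%) with the Hfe effect above the diet effect and 75 (0.46%) with it below, from 114 named genes and 22 probes with no gene symbol. The size of the called differences ran from 0.51 to 4.11 on the log2 scale, with a median of 0.95. The Hfe and diet effects had opposite signs for 126 of the 146, against 8360 of all 16288 probes, and the choice of probes by the difference favours opposite signs. The diet effect was itself called for 104 of them and the Hfe effect for 6. Both were called for 2 probes, which are the 2 probes of Apoa4, and neither for 38. On their own, 8 probes (0.0491%) were called for the Hfe effect and 393 (2.41%) for the iron diet effect, 197 of them higher (1.21%) and 196 lower (1.2%) on the iron diet. The 8 were 4 higher (0.0246%) and 4 lower.

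**Figure D1:**
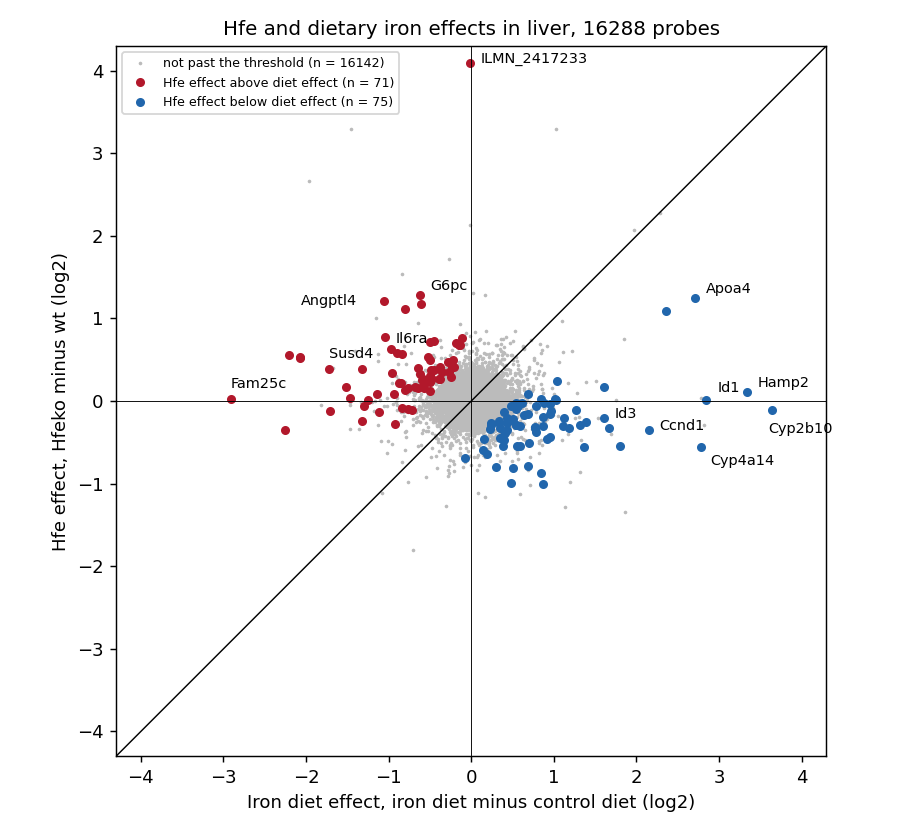
Each point is 1 of 16288 probes, with the iron diet effect on the horizontal axis and the Hfe effect on the vertical axis, both in log2 units, and the diagonal marks equal effects. The 71 red and 75 blue called probes lie on either side of the diagonal, most of them stretched along the horizontal axis, and Apoa4 is called with both effects positive.

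The controls of the experiments enter this difference with the same weight as the treated mice. The wt and control diet arrays differed by themselves at 820 probes (5.03%), 395 higher in wt (2.43%) and 425 lower (2.61%), so that 48.2% were higher, a share that fell to 15.1% with median scaling and rose to 67.8% with each experiment normalized by itself. The Hfeko and iron diet arrays differed at 1586 probes (9.74%), 732 higher in Hfeko (4.49%) and 854 lower (5.24%). Among the 146 called probes, 49 also differed between the controls and 97 did not, and 117 differed between Hfeko and iron diet. Arrays of different experiments correlated at 0.971 to 0.983, arrays of 1 group at 0.988 to 0.994. Genes with a called control difference are named as such below.

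The count also rested on single arrays. It was 11 without control diet replicate 1, 62 without wt replicate 2, 62 without iron diet replicate 2, 81 without Hfeko replicate 3, 97 without control diet replicate 2, and between 99 and 207 without each of the others. Of 50 called genes and probes named here, 41 missed the threshold without control diet replicate 1, with adjusted p from 0.0580 to 0.220, and none changed sign. With median scaling 22 of the 50 held, and with low signals raised to the lowest detected 19. The calls of Id1, Id3, Fam25c, Susd4, Cyp2b10, Cyp4a14 and Cyp4a31 and of the probe ILMN_2417233, which has no symbol, held without any 1 array and under each other setting that tested them. Cyp2b10, Akr1b8 and Atoh8 were detected on the iron diet arrays only and ILMN_2417233 on the Hfeko arrays only. These 4 passed the detection filter through the group where they were high, which favours a call, and they are given by bounds.

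**Figure D2:**
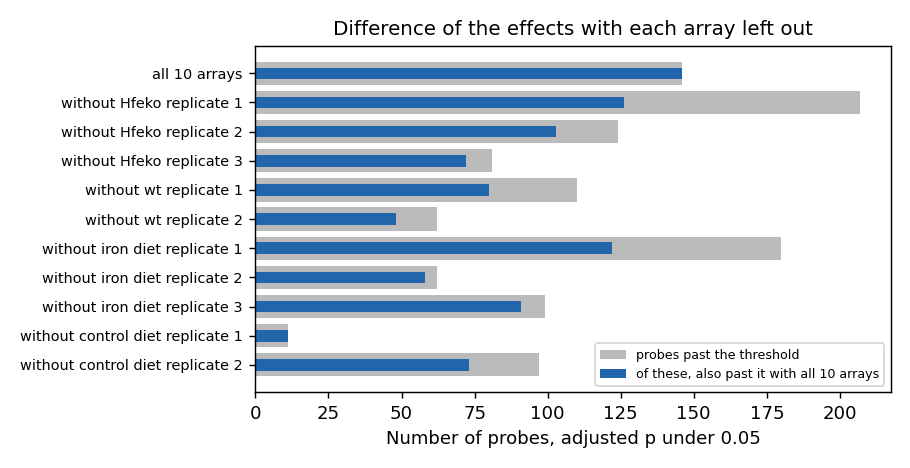
Bars give the number of probes called for the difference of the effects with all 10 arrays and with each array left out in turn, and the inner bars those also called with all 10. The count falls from 146 to 11 without control diet replicate 1.

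The Hfe probe gave no sign of the genotype. Its log2 signal was 6.73, 6.67 and 6.50 in Hfeko and 6.77 and 6.60 in wt, close to the detection limit and overlapping, and 6.81, 6.84 and 7.01 on iron diet against 6.83 and 6.95 on control diet. The difference was -0.05 (SE 0.14). The sources used here do not say where this probe lies relative to the disrupted part of the gene. ILMN_2417233 separated the genotypes instead, at 10.53, 10.44 and 10.35 in the 3 Hfeko arrays and between 6.21 and 6.44, not detected, in all 7 others. Its Hfe effect was at least 14.7-fold (adjusted p of the difference 1.88e-08).

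Dietary iron, and not loss of Hfe, was accompanied by higher Hamp2 and BMP target signals. Of 17 measured genes of hepcidin regulation and BMP-SMAD signalling, 4 were called lower and none higher (23.5%, against 1.11% of all 9291 genes). On the iron diet 6 of the 17 rose, where 1.21% of all probes did. The 4 include Atoh8, which passed the filter through the iron diet group only, and are Hamp2, Id1 and Id3 without it. The median difference of the list was -0.07, near the -0.01 of all genes, so the change lay in a few members. Bmp6, the ligand, and Smad7, the inhibitory SMAD, were not among the tested probes.

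Hamp2 showed the widest separation. Its log2 signal was 13.31, 13.73 and 14.21 on the iron diet and 10.26 and 10.55 on the control diet, whereas it was 10.71, 9.94 and 9.40 in Hfeko and 9.51 and 10.31 in wt. The iron diet arrays stood clear of all others, and Hfeko overlapped wt. The iron diet raised Hamp2 10.1-fold, the Hfe effect was 0.11 (SE 0.36), and the difference was -3.23 (SE 0.51, adjusted p = 0.0188). This call was lost without control diet replicate 1, wt replicate 2 or iron diet replicate 2 (highest adjusted p = 0.119), with median scaling, with low signals raised to the lowest detected, and with a trended and robust fit.

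Hamp itself gave 13.59, 13.58 and 13.39 on the iron diet, 12.43 and 12.97 on the control diet, 12.81, 12.49 and 12.00 in Hfeko and 12.70 and 13.14 in wt. The diet groups did not overlap and the genotypes did. The difference was -1.31 (SE 0.31) and missed the threshold (adjusted p = 0.0927), with a 95% interval from -2.0 to -0.61. Without Hfeko replicate 1 it passed, at -1.49 (adjusted p = 0.0406). The probes of such close copies may bind both transcripts, which was not tested.

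Id1 and Id3 encode inhibitors of basic helix-loop-helix transcription factors and are direct targets of BMP signalling. Id1 read 10.01, 9.54 and 9.35 on the iron diet and between 6.63 and 6.91 on all 7 other arrays. This was a rise of 7.2-fold with diet against an Hfe effect of 0.02 (SE 0.16), and a difference of -2.83 (SE 0.22, adjusted p = 0.000378). The 7 lay close to the lowest detected signals of the arrays, 6.54 to 6.59, so a fall of Id1 in Hfeko could hardly be seen. Id3 read 9.59, 9.14 and 9.21 on the iron diet against 7.54 and 7.88 on the control diet, and 7.76, 7.66 and 7.85 in Hfeko against 8.11 and 7.81 in wt. Its difference was -1.81 (SE 0.21, adjusted p = 0.00576). A dimmer probe of Id1 had the same sign and was not called. For both genes the 3 iron diet arrays lay above every other array and the controls overlapped.

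Atoh8, a helix-loop-helix factor of the same pathway, was detected on the 3 iron diet arrays only, at 7.26, 7.13 and 7.08, and lay at 6.24 to 6.46 elsewhere. Its rise on the iron diet was at least 1.52-fold and the adjusted p of its difference 0.0252, a call lost without any of 6 arrays, both wt and both control diet arrays, Hfeko replicate 3 and iron diet replicate 2 (adjusted p up to 0.119). The summed signal of 9 endothelial markers, a cell type that also expresses Id1, was 4068 to 4827 on the iron diet, 3291 to 3485 on the control diet, 3579 to 4140 in Hfeko and 3737 to 4024 in wt. Of the 9, 2 were called higher on the iron diet, where 1.21% of all probes were. The part of this cell type in these values was not tested. In whole liver, a change in the number of cells of a type and a change in RNA per cell cannot be told apart.

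**Figure D3:**
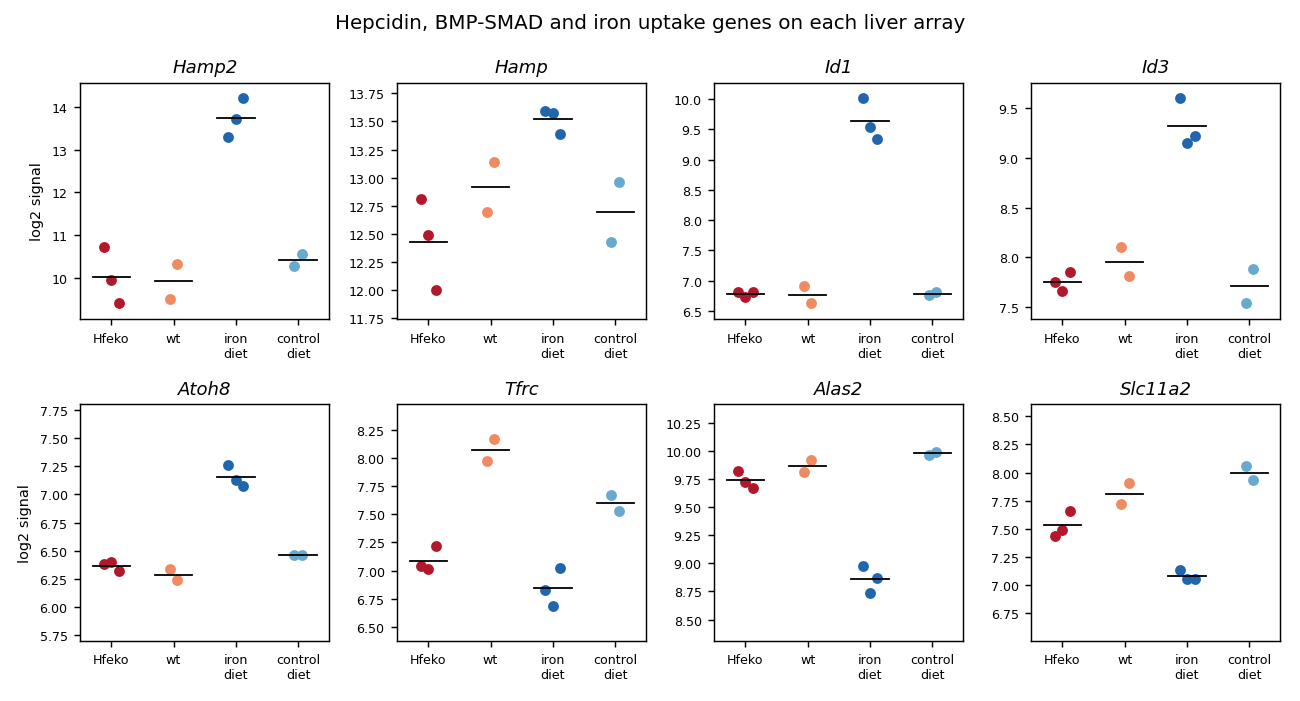
Log2 signal of 8 genes on each of the 10 liver arrays by group, with 1 point per array and a line at the group mean. The 3 iron diet arrays stand above all others for Hamp2, Id1, Id3 and Atoh8 and below all others for Alas2 and Slc11a2, while Tfrc is low in both iron-loaded groups.

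The transferrin receptor Tfrc, whose mRNA falls in iron-replete cells, fell in both models. It read 7.04, 7.01 and 7.22 in Hfeko against 7.97 and 8.17 in wt, and 6.83, 6.69 and 7.02 on the iron diet against 7.68 and 7.53 on the control diet. The Hfe effect was -0.98 (SE 0.11, adjusted p = 0.00858) and the diet effect -0.76 (SE 0.11, adjusted p = 0.00601). The difference of -0.22 had a 95% interval from -0.56 to 0.12. Of 21 measured genes of iron uptake, storage and export, 2 were called (9.52%, against 1.11% of all genes), both higher, and the list median was 0.01.

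These 2 were Alas2 and Slc11a2. Alas2, the first enzyme of heme synthesis in red cell precursors, read 8.98, 8.73 and 8.87 on the iron diet and 9.67 to 9.99 on all 7 other arrays. It fell 2.17-fold with diet, and the difference was 0.99 (SE 0.12, adjusted p = 0.00778), lost without control diet replicate 1 (adjusted p = 0.0580) and with median scaling (0.163), under which no gene of this list was called. The summed signal of the 2 erythroid markers measured, 1 of them Alas2, was 5540 to 6397 on the iron diet and 4646 to 5833 on the control diet, 4500 to 5726 in Hfeko and 5595 to 6685 in wt, and its part in this value was not tested. Slc11a2, the iron importer DMT1, read 7.13, 7.05 and 7.05 on the iron diet, 8.06 and 7.94 on the control diet, 7.44, 7.49 and 7.66 in Hfeko and 7.72 and 7.91 in wt. It lay lower in the iron-loaded group of each experiment with no overlap, by 0.92 with diet and by 0.28 with genotype. The difference of 0.63 (SE 0.13, adjusted p = 0.0467) passed only narrowly and was lost without any 1 of 9 arrays, all but Hfeko replicate 1 (adjusted p up to 0.220). A further Slc11a2 probe, detected on all 10 arrays, gave 0.61 (adjusted p = 0.0221). Another, detected on 2 arrays, gave 0.19 (adjusted p = 0.462).

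Among genes of fasting and glucose metabolism, those called had an Hfe effect above the diet effect, and for some the controls stood far apart. Of 27 measured genes, 3 were called (11.1%, against 1.11% of all genes), all higher, and the list median was 0.06. Between the controls 6 of the 27 differed, where 5.03% of all probes did. G6pc, glucose-6-phosphatase, read 12.31, 12.53 and 11.58 in Hfeko above 11.20 and 10.52 in wt, but 13.05, 13.13 and 13.05 on the iron diet below 13.77 and 13.63 on the control diet. The difference was 1.91 (SE 0.35, adjusted p = 0.0312), and wt lay 2.85 below control diet (adjusted p = 0.00134). Hfeko likewise lay below iron diet (adjusted p = 0.0224), so only the effects, and not the levels, were higher after loss of Hfe. Neither effect passed by itself. Ppp1r3b, the subunit that brings a phosphatase to glycogen, read 10.33, 10.28 and 9.79 in Hfeko, 9.62 and 9.38 in wt, 9.33, 9.45 and 9.53 on the iron diet and 10.53 and 10.27 on the control diet. Hfeko thus lay with control diet, and iron diet with wt. The difference was 1.60 (SE 0.22, adjusted p = 0.00973), with wt 0.90 below control diet (adjusted p = 0.0177).

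Pfkfb3, which sets the level of an activator of glycolysis, had controls that overlapped. It read 6.44, 6.65 and 6.80 on the iron diet and 7.31 to 7.88 on the other 7 arrays, and its difference was 1.07 (SE 0.19, adjusted p = 0.0291). On iron diet replicate 1 it lay under the lowest detected signal of that array, 6.54, and its call was lost with low signals raised. Gckr, the regulator of glucokinase, lay between 8.04 and 8.35 on all 10 arrays, with a difference of -0.09 and a 95% interval from -0.36 to 0.18. Without control diet replicate 1 none of the 3 calls held. That of G6pc was also lost without Hfeko replicate 1, wt replicate 2, iron diet replicates 2 and 3 or control diet replicate 2 (adjusted p up to 0.159), and that of Pfkfb3 without Hfeko replicate 3, either wt array, iron diet replicate 2 or control diet replicate 2 (adjusted p up to 0.119).

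Targets of PPAR alpha, the fatty acid receptor that drives fat oxidation, split in both directions. Of 31 measured, 1 was called higher and 3 lower (12.9% in all, against 1.11% of all genes). Between the controls 4 differed, where 5.03% of all probes did, and the list median was -0.06. Angptl4, an inhibitor of lipoprotein lipase, was the one called higher. It read 9.84, 10.64 and 10.00 in Hfeko over 9.17 and 8.73 in wt, and 10.21, 10.06 and 10.14 on the iron diet under 11.33 and 11.05 on the control diet. The iron-loaded groups met at the same level, 0.02 apart, and the controls lay 2.24 apart (adjusted p = 0.00134). The difference was 2.26 (SE 0.29, adjusted p = 0.00821), lost without control diet replicate 1 (adjusted p = 0.0595).

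Cyp4a14 and Cyp4a31 encode fatty acid omega-hydroxylases. Cyp4a14 read 11.92, 11.75 and 11.84 on the iron diet and 9.43 and 8.68 on the control diet, and in the Hfe experiment it was detected on 1 wt array alone, at 7.28, with the other 4 arrays between 6.05 and 6.45. The diet raised it 6.89-fold (adjusted p of the difference 0.00482), with wt 2.26 below control diet (adjusted p = 0.0038). Cyp4a31 had the same order of groups, at 9.30, 9.01 and 9.00 on the iron diet, 7.92 and 7.76 on the control diet and 6.63 to 6.96 in the Hfe experiment. Its difference was -1.37 (SE 0.17, adjusted p = 0.00778), and wt lay 1.02 below control diet (adjusted p = 0.0039). The Cyp4a genes are near copies of each other, so their probes may share targets.

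Ehhadh, an enzyme of peroxisomal beta-oxidation, had controls that overlapped. It rose with the iron diet, at 9.84, 9.26 and 9.43 over 8.63 and 8.48, while Hfeko read 8.40, 8.24 and 8.10 under 8.75 and 8.61 in wt. The difference was -1.39 (SE 0.21, adjusted p = 0.0163), lost without either control diet array (adjusted p up to 0.0739). Cyp2b10, a drug-metabolising P450 and a marker of the xenobiotic receptor CAR, was the one member called, lower, of 23 measured P450 genes of families 1 to 3 (4.35%, against 1.11% of all genes, list median -0.03). It was detected on the 3 iron diet arrays only, at 10.33, 9.52 and 9.99, and read 6.27 to 6.49 on the other 7. The rise with diet was at least 10.5-fold (adjusted p of the difference 0.000102).

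**Figure D4:**
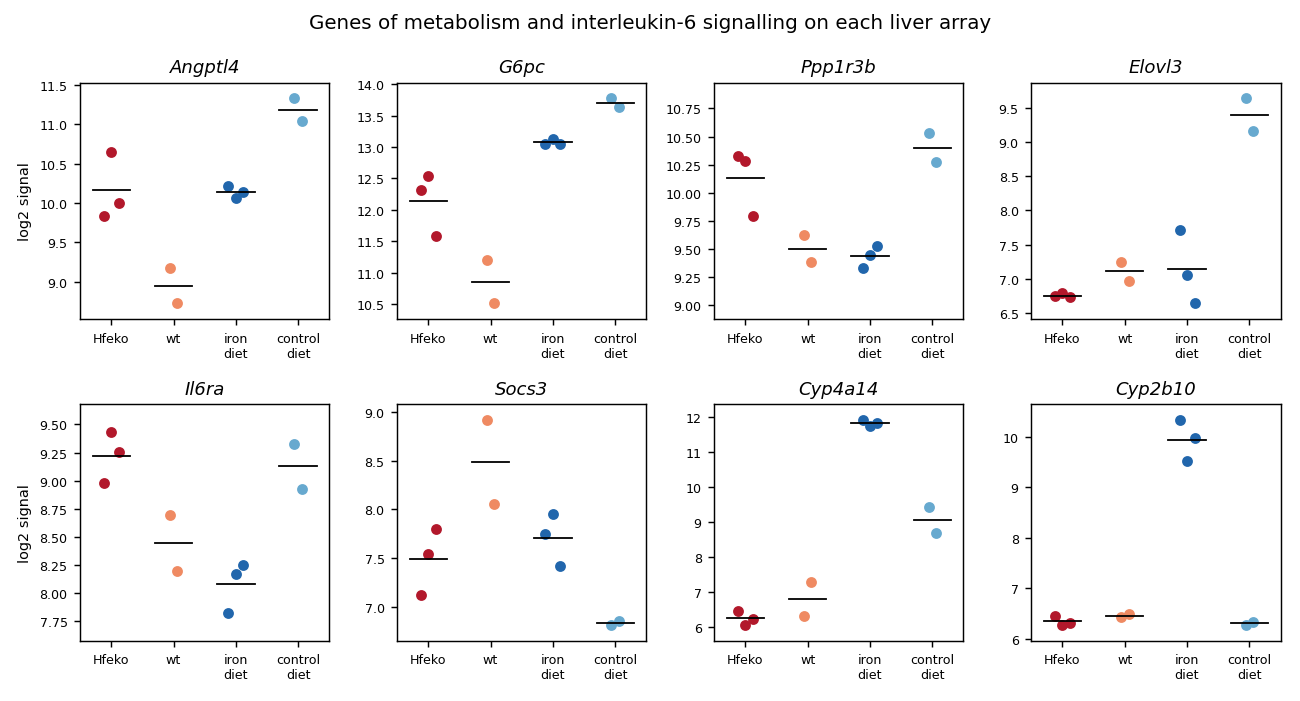
Log2 signal of 8 genes on each of the 10 liver arrays by group, with 1 point per array and a line at the group mean. Angptl4, G6pc, Ppp1r3b and Il6ra are higher in Hfeko than in wt and lower on the iron diet than on the control diet, Elovl3 stands apart in the control diet group, and Cyp4a14 and Cyp2b10 stand highest on the iron diet.

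Among 24 measured apolipoprotein and lipoprotein genes, 2 were called (8.33%, against 1.11% of all genes), both lower (list median -0.06). Apoa4, which rides on chylomicrons and high-density lipoprotein, was raised by both kinds of iron loading. It read 10.44, 10.20 and 10.57 in Hfeko against 9.03 and 9.29 in wt, and 11.35, 11.80 and 11.51 on the iron diet against 8.84 and 8.84 on the control diet. That is 2.37-fold with genotype (adjusted p = 0.00858) and 6.54-fold with diet (adjusted p = 4.99e-06), so the difference of -1.46 (SE 0.20, adjusted p = 0.00973) is one of size and not of direction. Apoa5, an activator of lipoprotein lipase, read 10.71, 10.95 and 10.79 on the iron diet and 8.84 to 9.48 on all others, a difference of -1.44 (SE 0.24, adjusted p = 0.024). Both calls were lost without control diet replicate 1 (Apoa4 adjusted p = 0.0631), and that of Apoa5 also without Hfeko replicate 3, wt replicate 2 or iron diet replicate 2 (up to 0.119).

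Genes of lipid synthesis lay mostly below 0. In fatty acid synthesis 16 of 22 measured differences were negative, with a median of -0.54, against 4873 negative differences of 9291 over all genes. But 1 was called in each direction (9.09% in all, against 1.11% of all genes), and 5 differed between the controls, where 5.03% of all probes did. Elovl3, a fatty acid elongase, was called higher. It read 9.64 and 9.16 on the control diet and 6.64 to 7.72 on all 8 other arrays, so its difference of 1.91 (SE 0.35, adjusted p = 0.0312) follows the control diet group, which lay 2.29 above wt (adjusted p = 0.0029). Elovl2, which elongates polyunsaturated fatty acids, read 9.30, 9.05 and 9.16 in Hfeko, 9.52 and 9.78 in wt, 9.44, 9.51 and 9.35 on the iron diet and 9.06 and 9.01 on the control diet, a difference of -0.88 (SE 0.14, adjusted p = 0.0188) with the controls 0.61 apart (adjusted p = 0.0143).

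In cholesterol synthesis 16 of 18 measured differences lay below 0 (median -0.47), and 2 were called (11.1%, against 1.11% of all genes). Lss, lanosterol synthase, read 7.94, 7.63 and 8.18 in Hfeko under 8.26 and 8.67 in wt and 8.57, 8.34 and 8.48 on the iron diet over 7.82 and 7.92 on the control diet, a difference of -1.14 (SE 0.22, adjusted p = 0.0391). Its 2 probes did not have the same sign. Mvd, mevalonate diphosphate decarboxylase, was not detected in Hfeko and read 7.04 and 7.29 in wt, 6.69, 7.07 and 6.92 on the iron diet and 6.47 and 6.71 on the control diet, at least 1.5-fold lower in Hfeko than in wt (adjusted p of the difference 0.024, lost with low signals raised), with controls 0.57 apart (adjusted p = 0.0441). The calls of Elovl3, Elovl2, Lss and Mvd each failed without wt replicate 2, iron diet replicate 2 or control diet replicate 1 and without 1 to 4 further arrays (adjusted p up to 0.182), and no called member of either list remained with median scaling.

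Cyp7a1, the rate-limiting enzyme of bile acid synthesis, was the one gene called among 23 of bile acid metabolism (4.35%, against 1.11% of all genes, list median -0.06). It read 8.74, 8.79 and 9.19 on the iron diet and 10.04 to 10.70 on the other 7 arrays. It fell 2.78-fold with diet against an Hfe effect of 0.04, a difference of 1.52 (SE 0.30, adjusted p = 0.0427). The controls overlapped. The call was lost without 7 of the arrays, all but Hfeko replicate 1, iron diet replicate 3 and control diet replicate 2 (adjusted p up to 0.195).

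Genes of glutathione metabolism and targets of NRF2, the factor that answers oxidative stress, rose with diet for 7 members (1.21% of all probes rose) and fell for 1 (1.2% of all probes fell), and none passed for genotype. Of 34 measured, the difference was called for 4, all lower (1.11% of all genes were called), and 24 of the 34 lay below 0 (median -0.32), as did 4873 of all 9291. One of the 4 is Akr1b8, called from a single detected group. Gstm1, a glutathione transferase, read 13.85, 13.72 and 13.65 on the iron diet over 13.06 and 13.03 on the control diet, and 12.14, 12.32 and 12.14 in Hfeko under 12.50 and 12.93 in wt. Its difference was -1.21 (SE 0.17, adjusted p = 0.0104). Gstm6 and Gstm4, its neighbours in the same family, gave differences of -1.16 (SE 0.19, adjusted p = 0.0245) and -0.82 (SE 0.14, adjusted p = 0.024). The groups did not overlap within either experiment for any of these 3. They were chosen by the same values, so this is no further evidence. But 2 further Gstm6 probes were not called, and probes of this family may bind more than one member.

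Akr1b8, an aldo-keto reductase, was detected on the iron diet alone, at 7.26, 7.39 and 7.28, and read 6.32 to 6.53 elsewhere. Its rise with diet was at least 1.69-fold (adjusted p of the difference 0.00973). Without control diet replicate 1 the adjusted p of Gstm1 and of Akr1b8 was 0.0631. The calls of Gstm6 and Gstm4 were lost without that array and without Hfeko replicate 3, wt replicate 2 or iron diet replicate 2, and that of Gstm4 without wt replicate 1 too (adjusted p up to 0.125).

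The broadest shift in 1 direction lay in genes that are expressed more in male than in female mouse liver. Many of these follow the pulsed growth hormone of males and STAT5b. Of 26 measured, 25 had a positive difference, with a median of 1.04, and 7 were called, all higher, against 4418 positive of all 9291 genes and 1.11% called. One of the 7 is Elovl3, described above, for which the control diet group stood apart. On the iron diet 13 of the 26 fell, where 1.2% of all probes did, while the median Hfe effect of the list was -0.01. The controls differed for 2, where they did for 5.03% of all probes. Without control diet replicate 1 all 26 were positive and the median was 1.04, but 2 were called. Of 13 measured genes expressed more in females, 11 were negative (median -0.43), and Cyp2b10, detected in 1 group only, was the one called. All mice were male.

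Fam25c, whose function is not well known, read 8.41, 8.87 and 8.19 on the iron diet and 10.92 to 11.47 on the other 7 arrays. It fell 7.51-fold with diet against an Hfe effect of 0.02 (SE 0.19), a difference of 2.93 (SE 0.27, adjusted p = 0.00124). Susd4, which inhibits complement, read 7.40, 7.36 and 7.28 on the iron diet and 9.06 to 9.86 on the others, a difference of 2.11 (SE 0.24, adjusted p = 0.00482). For both, every iron diet array lay lower than any other array.

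Hsd3b5, a steroid dehydrogenase of male liver, and C6, of the terminal complement pathway, had the same pattern. Hsd3b5 read 10.70, 10.51 and 9.93 on the iron diet and 11.42 to 12.24 on the others (difference 1.59, SE 0.29, adjusted p = 0.0312). C6 read 8.42, 8.59 and 8.01 on the iron diet and 9.45 to 10.15 on the others (difference 1.69, SE 0.28, adjusted p = 0.024). Both calls were lost without Hfeko replicate 3 or either control diet array, and that of Hsd3b5 without Hfeko replicate 2, either wt array or iron diet replicate 2 (adjusted p up to 0.164).

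**Figure D5:**
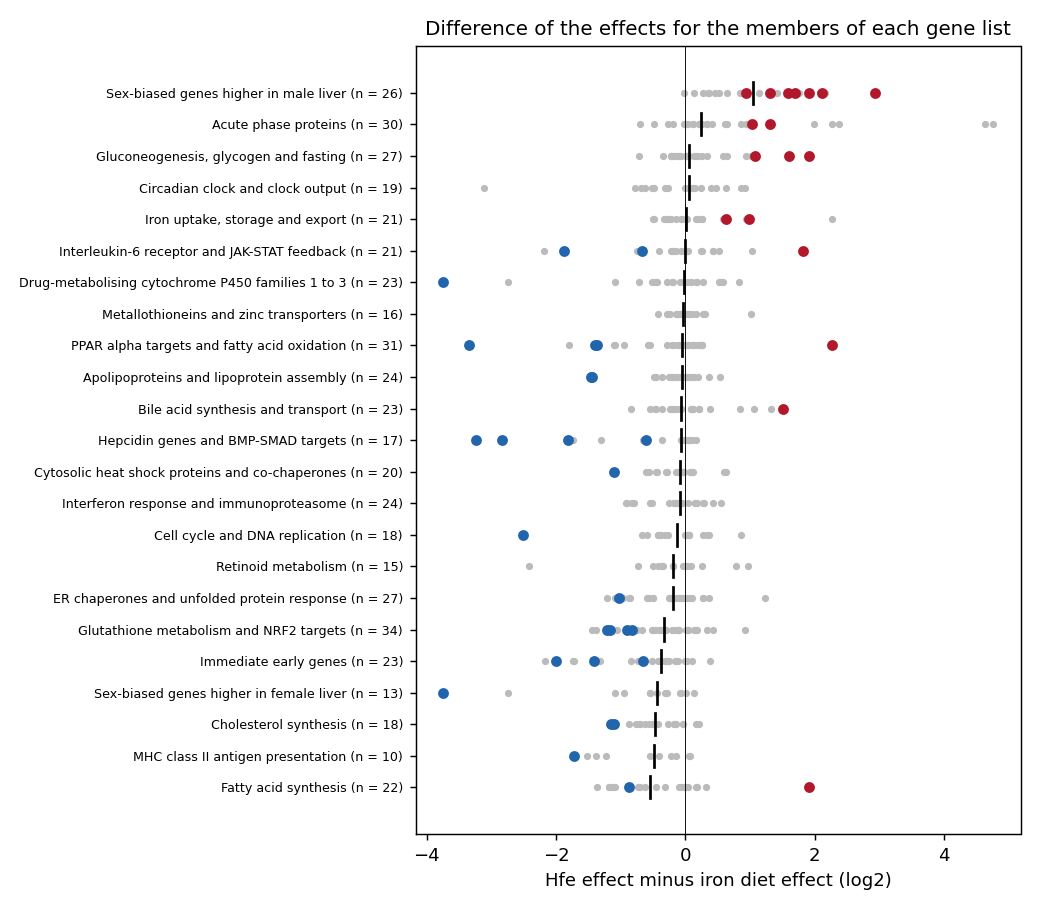
Each point is 1 gene of a list, placed by its Hfe effect minus iron diet effect in log2 units, with called genes in red (higher) and blue (lower) and a black bar at the list median. Of the 23 pathway lists drawn, male-biased genes have the highest median, 1.04, and fatty acid synthesis the lowest, -0.54.

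Acute phase proteins, which the liver secretes in inflammation, lay mostly above 0, with 24 of 30 measured differences positive and a median of 0.25. Of the 30, 2 were called (6.67%, against 1.11% of all genes). C9, the pore-forming end of the complement cascade, read 11.95, 12.05 and 12.30 in Hfeko over 11.74 and 11.78 in wt, and 11.17, 10.74 and 10.82 on the iron diet under 11.97 and 11.78 on the control diet. Its difference was 1.30 (SE 0.19, adjusted p = 0.0136), and a second C9 probe, detected on 3 arrays, gave 0.08 (adjusted p = 0.837). Saa4, the serum amyloid A made without inflammation, read 9.58, 9.59 and 9.39 on the iron diet and 10.32 to 11.10 on the others, a difference of 1.02 (SE 0.17, adjusted p = 0.0218). Without control diet replicate 1 their adjusted p rose to 0.0982 and 0.119, and the call of Saa4 was also lost without wt replicate 1. Both were lost with median scaling, which left no call in this list, and with low signals raised.

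The inducible amyloids gave larger differences that did not pass. Saa1 read 14.42, 11.15 and 14.27 in Hfeko, 10.07 and 11.17 in wt, 8.95, 10.08 and 9.24 on the iron diet and 12.77 and 10.01 on the control diet. Hfeko replicates 1 and 3 were high, replicate 2 lay among the wt values, and 1 control diet array was high as well. The difference was 4.63 with a 95% interval from 1.65 to 7.61 (adjusted p = 0.166). Saa2 gave 4.75 (adjusted p = 0.231) and Saa3 gave 2.38 (adjusted p = 0.272), with the same 2 Hfeko arrays highest. Lcn2, an iron-binding protein of innate defence, read 11.44, 8.27 and 11.23 in Hfeko against 7.07 and 6.98 in wt and 8.29, 7.90 and 7.79 on the iron diet against 7.17 and 6.75 on the control diet. Both groups lay above their controls with no overlap, and the difference of 2.26 had an interval from 0.05 to 4.47 (adjusted p = 0.388). All 4 passed without Hfeko replicate 2, the array in which each was lowest of the 3, at 5.68 for Saa1 (adjusted p = 0.0360), 6.18 for Saa2 (0.0200), 3.19 for Saa3 (0.0167) and 3.28 for Lcn2 (0.000461). Leaving out that low value both raises the difference and narrows the spread, and none of the 4 passed without any other array.

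Interleukin-6 receptor and JAK-STAT genes held 3 called of 21 measured (14.3%, against 1.11% of all genes), 1 higher and 2 lower (list median -0.01). Il6ra, the receptor chain that binds the cytokine, read 8.98, 9.43 and 9.26 in Hfeko over 8.70 and 8.20 in wt, and 7.83, 8.17 and 8.25 on the iron diet under 9.33 and 8.93 on the control diet. The difference was 1.82 (SE 0.26, adjusted p = 0.0136), and 3 of its 4 probes were called with the same sign. Socs3, the feedback inhibitor whose promoter window is shown above, went the other way, at 7.12, 7.54 and 7.80 in Hfeko under 8.92 and 8.06 in wt and 7.75, 7.95 and 7.41 on the iron diet over 6.81 and 6.85 on the control diet. The difference was -1.88 (SE 0.35, adjusted p = 0.0353). The controls lay 1.66 apart (adjusted p = 0.0109) and the iron-loaded groups overlapped.

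Jak1, a kinase of the receptor, gave a small difference of -0.67 (SE 0.12, adjusted p = 0.0312), with controls 0.61 apart (adjusted p = 0.00937). The call of Il6ra was lost without control diet replicate 1 (adjusted p = 0.0893), and those of Socs3 and Jak1 without any of 6 and 8 arrays, control diet replicates 1 and 2 and iron diet replicates 1 and 2 among them (adjusted p up to 0.159).

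Immediate early genes, which respond to signals within minutes, lay below 0 for 20 of 23 measured, with a median of -0.38, against 4873 of all 9291 genes, and 3 were called, where 1.11% of all genes were. Csrnp1, a nuclear protein of this class, read 8.56, 8.66 and 8.54 on the iron diet over 6.85 and 6.97 on the control diet, and 7.22, 7.70 and 8.03 in Hfeko, overlapping 7.88 and 8.08 in wt. The difference was -2.0 (SE 0.25, adjusted p = 0.00778), with controls 1.07 apart (adjusted p = 0.0162), and was lost without control diet replicate 1 (adjusted p = 0.0580). Zfp36l1, which binds AU-rich mRNAs, and Klf6, a zinc finger factor, gave -1.41 (SE 0.28, adjusted p = 0.0495) and -0.65 (SE 0.13, adjusted p = 0.0415), and lost their calls without any of 8 and 9 arrays respectively (adjusted p up to 0.146). A second Zfp36l1 probe, detected on all 10 arrays, gave -0.37 (adjusted p = 0.434).

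Ccnd1, the cyclin that carries cells from G1 into S phase, was the one member called of 18 cell cycle genes (5.56%, against 1.11% of all genes, list median -0.14). It read 10.35, 11.11 and 10.57 on the iron diet against 8.25 and 8.80 on the control diet, and 9.17, 9.48 and 9.41 in Hfeko, overlapping 9.29 and 10.13 in wt. The diet raised it 4.44-fold, and the difference was -2.50 (SE 0.37, adjusted p = 0.0151), with controls 1.18 apart (adjusted p = 0.0425). All 5 of its probes were negative and 4 were called. The call failed without control diet replicate 1.

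In the immune lists, 1 of 10 MHC class II genes (10%), 1 of 5 neutrophil markers (20%) and 1 of 5 T and NK cell markers (20%) were called. None of 4 B and plasma cell markers was, and the share over all genes was 1.11%. H2-Aa, the alpha chain of an MHC class II molecule, was the one called of 10, of which 8 were negative (median -0.48). It read 8.39, 8.14 and 7.77 in Hfeko under 8.89 and 9.05 in wt, and 8.55, 8.45 and 9.13 on the iron diet over 7.56 and 8.17 on the control diet, a difference of -1.72 (SE 0.33, adjusted p = 0.0391) with controls 1.1 apart (adjusted p = 0.0364). S100a8, a calcium-binding protein of neutrophils, read 8.23, 7.62 and 7.58 on the iron diet, was not detected on the control diet, and lay at 6.86 to 7.25 in the Hfe experiment, at least 2.39-fold higher on the iron diet than on the control diet (adjusted p of the difference 0.011), with controls 0.73 apart (adjusted p = 0.0386). The summed signal of 5 neutrophil markers was 589 to 772 on the iron diet, 426 to 448 on the control diet, 490 to 508 in Hfeko and 527 to 538 in wt. Of the 5, 3 were called higher on the iron diet, where 1.21% of all probes were.

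Cd8b1, a chain of the T cell co-receptor, was high in wt alone, at 8.37 and 8.45 against 7.57 to 7.91 elsewhere, a difference of -0.74 (SE 0.13, adjusted p = 0.0296) with controls 0.83 apart (adjusted p = 0.00379). A second Cd8b1 probe, detected on 5 arrays, gave -0.38 (adjusted p = 0.195). The summed signal of 5 T and NK cell markers was 719 to 748 in wt, 583 to 591 in Hfeko, 561 to 734 on the iron diet and 581 to 602 on the control diet. What part such cells had in these values was not tested. For the difference of effects no member was called among 11 hepatocyte, 9 Kupffer cell, 9 stellate cell and 9 endothelial markers, and in every group 10 or 11 of the 11 hepatocyte markers were detected on all arrays. None of 5 cholangiocyte markers was called either. Their summed signal was 678 to 4930 in wt, 1146 to 2097 in Hfeko, 535 to 695 on the iron diet and 614 to 711 on the control diet. The part of such cells in the differences was not tested. For the diet effect 1 stellate marker was called lower, where 1.2% of all probes were. The call of S100a8 was lost without control diet replicate 1 (adjusted p = 0.0700), that of Cd8b1 without that array and 4 more (adjusted p up to 0.143), and that of H2-Aa without 7 arrays (up to 0.182).

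Single members were called in the remaining stress lists. Hspb8, a small heat shock protein, was the one of 20 (5%, against 1.11% of all genes) and gave -1.1 (SE 0.19, adjusted p = 0.0246). Trib3, a pseudokinase induced in the stress of the endoplasmic reticulum, was the one of 27 (3.7%) and read 7.78, 7.97 and 7.71 on the iron diet and 6.41 to 6.88 elsewhere (difference -1.02, SE 0.18, adjusted p = 0.0296). Its lowest value lay under the lowest detected signals of the arrays, 6.54 to 6.59. These calls were lost without 5 and 6 arrays (adjusted p up to 0.159). No gene was called among 24 of the interferon response, 19 of the circadian clock, 16 of metallothionein and zinc and 15 of retinoid metabolism. Between the controls 9 of the 19 clock genes differed, where 5.03% of all probes did. Mt1, the metal-binding metallothionein, gave a difference of 0.10 with a 95% interval from -2.19 to 2.39, and Rgs16, which shortens signals through G proteins, -0.01 with an interval from -1.54 to 1.52, both too wide to show likeness of the responses.

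Among the largest differences outside these lists, H1f2 lay lowest in Hfeko. It encodes a linker histone and is separated from Hfe by 1 annotated gene on chromosome 13 in RefSeq (GRCm38.p6). It read 9.33, 9.31 and 9.77 in Hfeko and 9.93 to 10.74 on the other 7 arrays, a difference of -1.47 (SE 0.23, adjusted p = 0.0184), lost without wt replicate 2 or iron diet replicate 2 (adjusted p up to 0.0579). Distances from Hfe were looked up for named genes only, and other histone genes were called with the opposite sign. Slc16a5, a monocarboxylate transporter, read 7.96, 8.54 and 8.75 on the iron diet over 6.99 and 7.11 on the control diet, and 7.57, 7.14 and 7.03 in Hfeko, overlapping 7.51 and 8.09 in wt. Its difference was -1.92 (SE 0.33, adjusted p = 0.0257). Cabyr, a calcium-binding protein, was highest on the control diet, at 8.12 and 7.57 against 6.37 to 7.30 on the other arrays, a difference of 1.27 (SE 0.25, adjusted p = 0.0395) with controls 0.76 apart (adjusted p = 0.0475). Its lowest value lay under the lowest detected signals of the arrays, 6.54 to 6.59, and its call was lost with low signals raised. Without control diet replicate 1 neither Slc16a5 nor Cabyr held, nor without 5 and 7 other arrays (adjusted p up to 0.164).

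The genes that the study listed for liver as moving in opposite directions in the models, and as moving alike, were chosen on these same samples, so they are no independent evidence. Of 25 measured genes of the first list, 6 were called here (24%, against 1.11% of all genes), 3 in each direction, with a list median of -1.31. Between the controls 8 of the 25 differed, where 5.03% of all probes did. Of 17 of the second, 1 was called (5.88%), Apoa4, whose effects differed in size.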

How the data were processed

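Bead signals (intensity) and detection p-values of 46632 distinct probes were used as deposited by the authors, from Illumina Sentrix Mouse-6 arrays hybridised with RNA of single mice. The authors also deposited log2 values, quantile-normalized within each experiment in Chipster and used here as an alternative. In these, Hfeko replicates 1 and 2 are exchanged relative to the signals, which leaves group means as they are. All 10 liver arrays underwent joint quantile normalization of their signals, then log2, with no background correction. Group means were fitted in limma 3.58.1 (R 4.3.3) with 1 shared spread, 6 residual degrees of freedom and Benjamini-Hochberg adjustment over 16288 probes. Intervals are 95%. The procedure was tested on simulated data. Each gene is given by its tested probe of highest mean, and 3746 tested probes have no single symbol. Bounds ("at least") set undetected probes at the lowest detected signal. The text names the 12 largest called differences in each direction, up to 4 called genes per list, some fixed genes and unnamed probes by smallest p. Members, lists and rules were chosen with earlier results of these data known. P-values rest on 1 spread pooled over the 4 groups of 2 or 3 mice and moderated in limma with 4.88 prior degrees of freedom. They do not cover variation of age or cohort between the experiments, and the small number of arrays limits precision. No chip or batch is given in the sources used here.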

Additional observations from a re-analysis of the deposited data

How the results depend on the processing

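The count of 146 called differences fell to 38 with median scaling and to 55 with low signals raised to the lowest detected. It was 11 to 207 with each array left out, where a lone array is assumed to vary like the others, and stayed within 1.5 times of 146 under the other 9 settings. The called Hfe effects, 8, became 16 with normexp correction, 51 with no detection filter, 40 with a trended and robust fit, 1 with low signals raised, 4 on the 5 arrays of that experiment alone, and 6 to 31 with each array left out. Median scaling kept the number at 8 but moved the share that was higher from 50% to 25%. The called diet effects, 393, became 176 with median scaling, 624 with array weights, and 44 to 403 with each array left out. The control difference, 820, became 1491 with each experiment normalized by itself, 1464 with the authors' values, and 51 to 983 with each array left out.

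With the replicate number as a block the difference was called for 104 probes, 92 of them among the 146, and the diet effect for 211. Deviations of arrays with the same number correlated by 0.026 on average (-0.144 to 0.150, 13 pairs), so the numbers were not taken as a pairing. Of the 50 named calls, 22 held with median scaling, 19 with low signals raised, 42 with the block, and 8 in all settings that tested them. None reversed. Hamp, Saa1, Saa2, Saa3 and Lcn2 each gained a call in 1 setting, an array left out. Among other uncalled genes, Mt1 turned to -0.047 with median scaling and -0.20 with array weights, and ran from -0.86 to 1.06 with each array left out. Rgs16 turned to 0.27 with normexp and ran from -0.74 to 0.74, and Hfe from -0.14 to 0.033. Without control diet replicate 1, an alternative chosen after seeing the data, the male-biased, cholesterol, immediate early and glutathione lists had medians of 1.04, -0.44, -0.60 and -0.26. The cause of these changes was not tested. At an unadjusted p under 0.05, 2038 probes passed, where 814 would by chance.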

Other observations

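The same difference of effects was computed in the duodenum of the 9 arrays of that tissue, where 18474 probes were tested and 1 was called (0.00541%; limma, adjusted p under 0.05). Of the 146 probes called in liver, 113 were tested there. The 1 called was ILMN_2417233, with a difference of 2.26 (SE 0.13) and an Hfe effect of 2.30, the probe that was detected in liver on the Hfeko arrays only. Whether liver and duodenum differ was not tested. H1f2 gave -0.81 (SE 0.14, adjusted p = 0.150) in duodenum. The glutathione transferases Gstm1, Gstm6 and Gstm4 gave -1.84, -1.17 and -1.36 (adjusted p = 0.136, 0.136 and 0.138), again with the iron diet effect above the Hfe effect. Fam25c gave 0.19 and Angptl4 -0.02. Several genes had the sign opposite to that in liver. Among these, Hamp2 gave 2.32 (SE 1.27, adjusted p = 0.644), H2-Aa 1.20 (SE 0.32, adjusted p = 0.349) and Zfp36l1 0.71 (SE 0.14, adjusted p = 0.197). Others were Id1 at 0.42, Csrnp1 at 0.39, Socs3 at 0.56 and G6pc at -0.56 (adjusted p from 0.400 to 0.802). The genes given here are not all of those that reversed.

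Some probes of a gene called in liver were not those that represent it here. Haptoglobin, Hp, had a difference of 0.94 (adjusted p = 0.0857) on the probe of highest mean, Id4 gave -0.36 (adjusted p = 0.119) and Mgst3 gave -1.05 (adjusted p = 0.0760), while a further probe of each was called with the same sign. These 3 genes were singled out after their values were seen.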
